A study of Rattus norvegicus with 8 samples.

Results

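The question was which genes differ between the dorsal root ganglia (DRGs) of nerve-injured and naïve rats when males and females are pooled. The 8 libraries of the series all entered the comparison, 4 from rats with chronic constriction injury (CCI) and 4 from naïve rats, with 2 males and 2 females on each side, and the members were chosen by the condition in the column names. One additive model was fitted, in which sex was a covariate and a single value stood for the effect of CCI in both sexes. All rats were adult, gonadally intact Sprague-Dawley animals. In CCI rats the sciatic nerve had been loosely tied with 4 silk sutures through a cut in the thigh, and on day 14 the ipsilateral DRGs of levels L4 to L6 were taken and those of 1 rat were pooled into 1 library. The naïve rats had no operation, so the effects of the cut and of the tied nerve cannot be told apart. The stage of estrus was not determined, and the study left out CCI rats whose paw withdrawal threshold had not dropped far enough and a naïve rat with an unusually low threshold.

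A DRG holds the cell bodies of the sensory neurons that carry touch, position and pain from the body to the spinal cord. Each cell body is wrapped in satellite glia, the axons are wrapped in Schwann cells, many of which form myelin, and blood vessels, fibroblasts and resident immune cells lie between them. When a peripheral axon is damaged, DRG neurons are known to switch on injury-response transcription factors, to change the neuropeptides and ion channels they make, and to express genes of axon growth. Because a library is a pool of whole ganglia, fewer cells of a type and less RNA per cell cannot be told apart in any result here.

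Expression is given in CPM, the count of a gene relative to the total of its library after TMM scaling. When 4 values are listed for a condition they are the 2 males first and then the 2 females, and means are given with their SD over 4 rats, which includes the difference between the sexes. A gene was called higher or lower when edgeR's quasi-likelihood test gave a Benjamini-Hochberg adjusted p under 0.05 and an absolute log2 fold change (log2FC, CCI over naïve) above 0.5. Gene symbols were available for 1960 of the 16988 genes tested (11.5%), and they come from lists of genes that the study had called on these same libraries. Named genes were therefore partly picked by their own change, and shares of called genes within a named group cannot be read as independent evidence. Over the genes with a symbol, 8.06% were called higher and 24.5% lower, and the conditions did not overlap in 35.6%.

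Library totals ranged from 39489103 to 60818457 counts. The first principal component of log2 CPM held 36.0% of the variance, and all 4 CCI libraries lay above all 4 naïve libraries on it. The male replicate 1 libraries of both conditions stood apart from the others on the second component, where they had the highest values. In the deposited table their column names alone carry an added letter, and sequencing ran in 2 batches that are not assigned to libraries, so batch effects were not tested. Without both of these libraries, 740 genes were called higher and 729 lower, in place of 979 and 1429. Without CCI male replicate 1 alone 860 were lower, and without CCI male replicate 2 alone 814. Summed over 11 sensory neuron markers, the naïve libraries held from 6150 to 8339 CPM and the CCI libraries from 8828 to 10878 CPM, without overlap. Neurofilament heavy chain (Nefh), for example, was at 3319.6, 4019, 4224 and 4282 CPM in naïve and 5658, 5822, 4612 and 5407 CPM in CCI rats. Nefh was the most abundant of the 11 and is also a member of the axon growth list. Of the 11 markers 4 were called higher, 1 lower (Aldh1a1, log2FC −0.92) and 6 were not called. The shares over genes with a symbol were 8.06% higher and 24.5% lower. With Aldh1a1, Pvalb and Hapln4, 3 of the markers had a log2FC below 0. The median log2FC of the markers was 0.65 in males and 0.12 in females. These markers include peptide and channel genes of the groups below, such as Calca, Tac1 and Trpa1. The part of the higher marker sum in the changes of the neuropeptide, channel and axon growth groups was not tested. The erythrocyte and muscle genes that differed between libraries are described with their own groups.

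After CCI, 979 of the 16988 genes tested were higher (5.76%) and 1429 were lower (8.41%), so that 59.3% of the 2408 called genes were lower. Most changes were small. The median log2FC was 0.69 over the higher genes and −0.78 over the lower genes, beside −0.02 over all genes tested. An absolute log2FC above 2 was seen in 90 of the higher and 72 of the lower genes. Without the threshold on the log2FC, 5472 genes passed the adjusted p, 2858 above 0 and 2614 below. All 4 CCI libraries lay above all 4 naïve libraries in 914 of the 979 higher genes (93.4%), and all 4 lay below them in 1080 of the 1429 lower genes (75.6%). Over all genes tested, the share with no overlap between the conditions was 16.9% upward and 13% downward, or 29.9% in all. For a single gene, an exact permutation test within sex cannot give a two-sided p under 0.0556, so the adjusted p-values rest on the spread shared across genes in the model, with a biological coefficient of variation of 17.3%. Each library came from a separate rat.

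**Figure D1:**
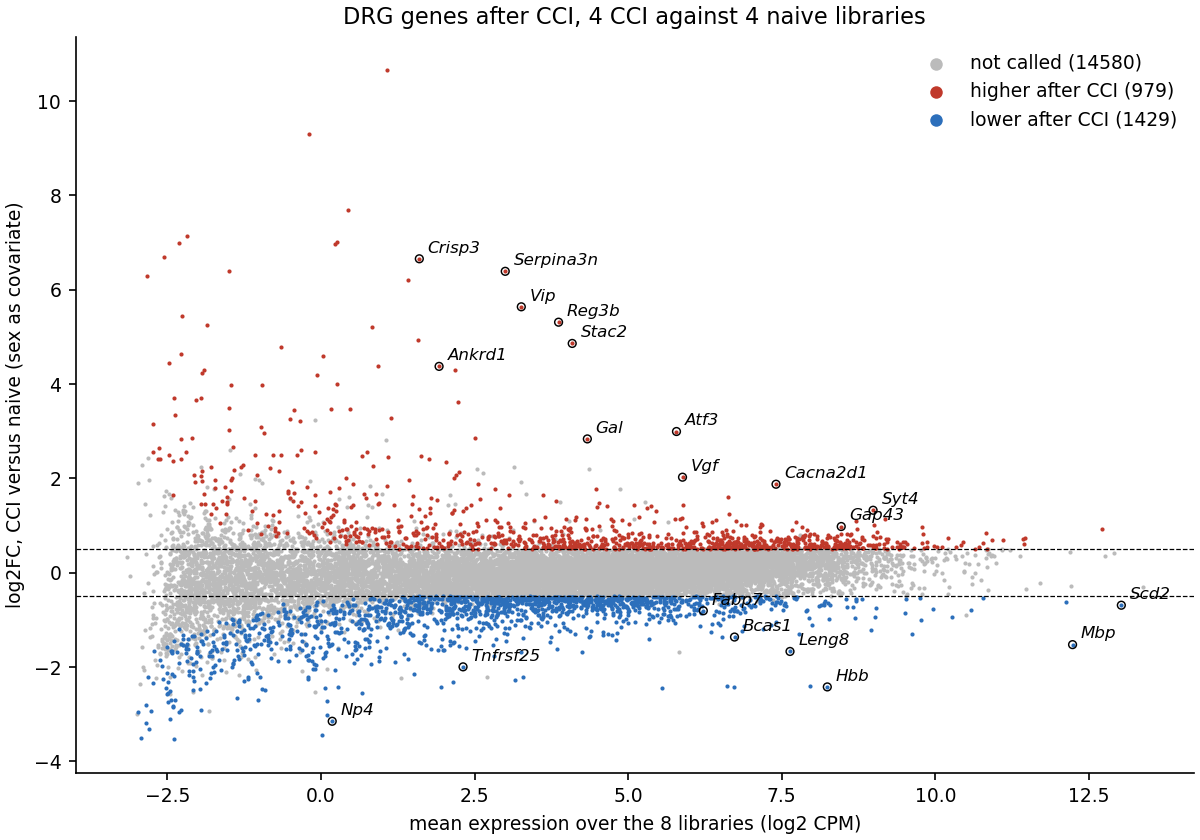
Log2FC of CCI over naïve rats (vertical axis) against mean expression over the 8 libraries in log2 CPM (horizontal axis), for the 16988 genes tested. Red points are the 979 genes called higher and blue points the 1429 called lower. Dashed lines mark the log2FC threshold of 0.5, and circles mark named genes. The largest rises were in genes of low to middle expression such as Vip and Stac2, whereas the lowered genes included Mbp, one of the most abundant transcripts.

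Atf3, a bZIP transcription factor induced in axotomised neurons, rose in every CCI rat. It was at 11.7, 11.04, 12.7 and 11.8 CPM in naïve rats and at 67.7, 70.9, 122 and 133 CPM in CCI rats. The conditions were far apart and the CCI females were above the CCI males. The log2FC was 2.99 ± 0.16 (SE, adjusted p = 3.81e-05), or 7.96-fold. Of the 5 injury transcription factors with a symbol it was the one that was called. Fos had a log2FC of 0.29 ± 0.26 (SE, adjusted p = 0.428) and Egr2, a factor of myelinating Schwann cells, of −0.26 ± 0.16 (SE, adjusted p = 0.255). For Fos this stands for −0.32 in males and 0.90 in females, and for Egr2 for −0.60 in males and 0.08 in females. Neither difference between the sexes passed the interaction test (adjusted p = 0.0659 and 0.129).

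By number of raised members the list of the neuropeptides and secreted neuronal signals came first, though smaller lists had larger shares. Of its 21 measured members 13 were higher and the other 8 were not called, with a median log2FC of 0.82, and the sum of sensory neuron markers was higher in CCI rats too. All 4 CCI libraries lay above all naïve libraries in 14 of the 21. Among genes with a symbol 8.06% were higher, and 35.6% had no overlap in either direction. Vip, vasoactive intestinal peptide, was almost silent in naïve ganglia, with 0.268, 0.165, 0.465 and 0.615 CPM, and was at 11.4, 10.5, 27.03 and 26.5 CPM after CCI. It had the smallest adjusted p among genes with a symbol, with a log2FC of 5.64 ± 0.15 (SE, adjusted p = 1.09e-06). Gal, the precursor of galanin, was at 3.56, 3.76, 6.55 and 5.01 CPM in naïve rats against 21.4, 21.6, 43.3 and 56.5 CPM. Here too the CCI females were the highest and the conditions did not overlap, with a log2FC of 2.84 ± 0.15 (SE, adjusted p = 3.81e-05). Adcyap1, which encodes PACAP, a peptide of the VIP family, was at 53.1, 58.5, 46.6 and 37.9 CPM in naïve and 141, 145, 158 and 153 CPM in CCI rats, with a log2FC of 1.61 ± 0.12 (SE, adjusted p = 1.58e-04).

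Peptides that small-diameter nociceptors contain at rest had smaller log2FC values. Calca, which encodes CGRP, was at 605, 776, 1071 and 785 CPM in naïve rats and 1309, 1274, 1076 and 1129 CPM in CCI rats. The highest naïve rat, a female, was close to the lowest CCI rat, another female, and the log2FC was 0.58 ± 0.16 (SE, adjusted p = 0.026). Leaving out any 1 male library or female naïve replicate 2 ended this call, with log2FC values down to 0.44. Tac1, the precursor of substance P, had a log2FC of 0.74 ± 0.16 (SE, adjusted p = 0.0109). Sst, somatostatin, had 0.07 ± 0.12 (SE, adjusted p = 0.684) and Calcb 0.37 ± 0.13 (SE, adjusted p = 0.0573), and neither was called. Nts, neurotensin, rose from a low level, 0.612, 0.697, 1.48 and 1.28 CPM, to 3.58, 3.05, 2.02 and 2.25 CPM, with a log2FC of 1.47 ± 0.34 (SE, adjusted p = 0.0135). Its log2FC was 2.34 in males and 0.62 in females.

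Dense-core vesicle proteins, growth factors and cytokines were among the other members of this list. Vgf, a granin-like precursor of several peptides, was at 29.02, 13.4, 24.1 and 26.8 CPM in naïve and 113, 64.3, 104 and 97.8 CPM in CCI rats. The values varied among naïve males and among CCI males by more than in females, and the log2FC was 2.03 ± 0.25 (SE, adjusted p = 0.00114). Scg2, secretogranin II, had a mean of 256 ± 41.2 CPM in naïve and 448 ± 26.8 CPM in CCI rats, and Scg3 had a log2FC of 0.61 ± 0.093 (SE, adjusted p = 0.00286). Bdnf, a neurotrophin that sensory neurons release in the spinal cord, was at 21.9, 24.2, 27.2 and 26.9 CPM in naïve rats and 61.95, 56.02, 65.7 and 65.01 CPM in CCI rats. Its log2FC was 1.31 ± 0.062 (SE, adjusted p = 3.71e-05), with 1.36 in males and 1.26 in females. Csf1, the cytokine by which injured neurons act on microglia and macrophages, was at 13.6, 13.97, 12.7 and 13.9 CPM in naïve rats and 20.2, 21.5, 32.5 and 30.01 CPM in CCI rats, with a log2FC of 0.92 ± 0.13 (SE, adjusted p = 0.00195). Reg3b, a secreted lectin, was below 1 CPM in every naïve library, with 0.899, 0.5502, 0.7398 and 0.496 CPM. After CCI it was at 20.2, 18.6, 40.4 and 34.97 CPM, a log2FC of 5.31 ± 0.26 (SE, adjusted p = 3.71e-05). Cbln2, a synaptic organiser, had a log2FC of 1.24 ± 0.094 (SE, adjusted p = 1.73e-04).

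Several of these genes are known targets of cAMP signalling and of AP-1 factors, so the 250 bases before the start of their RefSeq transcripts were read on the GRCr8 build. The letters TGACGTCA (cAMP response element) and TGACTCA (AP-1) were searched on both strands, and neither motif contains the other. The windows of Vgf (chr12:25277073-25277140), Scg2 (chr9:88256952-88257019) and Nts (chr7:39461064-39461130), all on the minus strand, are shown because they held a match in a secreted signal that rose. Each runs 5′ to 3′ along the gene, with the match in capitals and 30 bases on either side.
Vgf: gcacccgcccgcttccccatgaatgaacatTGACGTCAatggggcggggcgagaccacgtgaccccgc
Scg2: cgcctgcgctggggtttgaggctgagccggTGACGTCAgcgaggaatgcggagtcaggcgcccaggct
Nts: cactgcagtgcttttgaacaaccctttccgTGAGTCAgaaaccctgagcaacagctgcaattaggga
Of the 158 higher and 480 lower genes with a symbol, 117 and 347 had an entry among the RefSeq promoters, some of them with several. The full cAMP response element stood in 3 of 128 promoters of higher genes (2.34%), in 6 of 371 promoters of lower genes (1.62%) and in 531 of all 33469 promoters (1.59%). The AP-1 letters stood in 6 (4.69%), 15 (4.04%) and 1354 (4.05%) of them. The called genes come from the tested genes with a symbol, which had 1587 promoters. Of these, 43 (2.71%) held the cAMP response element and 63 (3.97%) the AP-1 letters. A match describes the letters in a window and not a bound site. The promoters of Vip, Gal, Bdnf and Reg3b held neither motif, which says only that these letters are not in these windows.

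Receptors for such signals formed a list of their own. Of 6 measured receptors for neuropeptides, neurotrophins and cytokines 5 were higher and 1 was lower, beside 8.06% and 24.5% of genes with a symbol. Lifr, the receptor subunit for leukaemia inhibitory factor, was at 241, 259, 283 and 313 CPM in naïve and 489, 475, 463 and 512 CPM in CCI rats. The log2FC was 0.83 ± 0.076 (SE, adjusted p = 3.58e-04), with 0.95 in males and 0.701 in females. Oprm1, the µ opioid receptor, had a log2FC of 0.67 ± 0.14 (SE, adjusted p = 0.00933) and the nociceptin receptor Oprl1 of 0.59 ± 0.11 (SE, adjusted p = 0.00595). For Oprm1 the log2FC was 1.03 in males and 0.31 in females, and for Oprl1 0.82 in males and 0.35 in females. In females alone neither was called. Galr1, a galanin receptor, had 0.67 ± 0.19 (SE), with CCI values of 14, 13.9, 7.47 and 7.65 CPM against naïve values of 5.58, 7.34, 6.98 and 6.08 CPM. Its CCI females lay barely above the highest naïve rat, the adjusted p was 0.0278, and leaving out any 1 male library ended the call. Ngfr, the p75 neurotrophin receptor of neurons and dedifferentiated Schwann cells, had a log2FC of 0.62 ± 0.096 (SE, adjusted p = 0.00301). The GM-CSF receptor subunit Csf2ra was the lower member, at −0.64 (adjusted p = 0.0354), and its conditions overlapped. Leaving out any 1 male library or CCI female replicate 2 ended its call. Without both male replicate 1 libraries 3 of the 6 were higher.

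Ion channels changed unevenly. Among calcium channel genes and their adaptors 2 of 5 were higher, beside 8.06% of genes with a symbol. Both were among the strongest results of the comparison. Cacna2d1, the α2δ-1 accessory subunit to which gabapentin binds, was at 62.1, 72.8, 74.3 and 80.4 CPM in naïve rats and at 246, 230.0, 290.2 and 301 CPM in CCI rats. Its log2FC was 1.88 ± 0.072 (SE, adjusted p = 1.08e-05), a 3.67-fold rise. Stac2, an adaptor protein of voltage-gated calcium channels, went from 0.937, 1.03, 1.48 and 0.922 CPM to 23.3, 24.02, 43 and 41.5 CPM, with a log2FC of 4.86 ± 0.16 (SE, adjusted p = 4.39e-06). The related subunit Cacna2d3 had a log2FC of 0.42 (adjusted p = 0.0133), below the threshold, and Cacna1g, a T-type channel, had 0.01.

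Of 4 voltage-gated sodium channel genes with a symbol 3 were higher, and in all 4 the CCI libraries lay above the naïve ones. The shares over genes with a symbol were 8.06% higher and 35.6% without overlap in either direction. Scn9a, which encodes the nociceptor channel Nav1.7, was at 287, 329, 374 and 378 CPM in naïve and 711, 676, 644 and 715 CPM in CCI rats. The log2FC was 1.01 ± 0.088 (SE, adjusted p = 2.98e-04), or 2.02-fold, with 1.17 in males and 0.84 in females. Scn1a (Nav1.1) and Scn8a (Nav1.6), channels of large myelinated neurons, had 0.72 ± 0.17 (SE, adjusted p = 0.0136) and 0.72 ± 0.14 (SE, adjusted p = 0.00675), and their CCI males exceeded their CCI females. Scn7a, a sodium-sensing channel also found in glia, was not called, at 0.41.

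Among 18 genes for potassium and HCN channels 4 were higher, beside 8.06% of genes with a symbol. The other 14 were not called, and the median log2FC was 0.23. Of the higher ones Kcnv1, a silent subunit that modifies other potassium channels, had a log2FC of 0.74 ± 0.14 (SE, adjusted p = 0.00563). The calcium-activated channel Kcnma1 was at 0.61 ± 0.11 (SE, adjusted p = 0.00599) and the delayed rectifier Kcnb2, at 0.58 ± 0.12 (SE, adjusted p = 0.00866). Kcnb2 and Kcnma1 fell below the log2FC threshold without both male replicate 1 libraries. Among 9 TRP, purinergic and related channels 2 were higher and 2 lower, beside 8.06% and 24.5% of genes with a symbol. Trpa1, the irritant receptor, was at 48.4, 54.7, 57.5 and 53.5 CPM in naïve rats and 119.6, 112, 108 and 109 CPM in CCI rats. No library stood apart within either condition, and the log2FC was 1.07 ± 0.070 (SE, adjusted p = 1.04e-04). P2rx3, the ATP receptor of nociceptors, had 0.53 ± 0.090 (SE, adjusted p = 0.00409). P2rx7, an ATP receptor of glia and immune cells, was lower at −0.58 ± 0.11 (SE, adjusted p = 0.00631), and Trpv3 at −0.89 ± 0.21 (SE, adjusted p = 0.0153). Without both male replicate 1 libraries neither of the lower genes was called, and P2rx3 was not called either. Leaving out naïve or CCI male replicate 1 alone left 1 of the 9 higher, and without CCI male replicate 1 there was also 1 lower in place of 2.

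Of 19 receptors for GABA, glycine, glutamate, serotonin and acetylcholine 4 were higher and 15 were not called, and the 4 were GABA-A subunits. The share of higher genes was 8.06% over genes with a symbol. Gabra5, the α5 subunit of extrasynaptic receptors, stood out with 8.58, 8.31, 13 and 11.04 CPM in naïve and 32.7, 32.6, 37.2 and 35 CPM in CCI rats. Its log2FC was 1.77 ± 0.093 (SE, adjusted p = 3.81e-05). Gabra2 had 0.804 ± 0.104 (SE, adjusted p = 0.00143) and Gabrg1 0.62 ± 0.14 (SE, adjusted p = 0.0116). The count of 4 was 9 without CCI female replicate 1, and 8 and 7 without naïve female replicate 1 and 2. In the release machinery 3 of 9 were higher, beside the same 8.06%. Syt4, a synaptotagmin of dense-core vesicles, went from 247, 281, 321 and 311 CPM to 720.1, 658, 737 and 781 CPM, with a log2FC of 1.32 ± 0.070 (SE, adjusted p = 3.81e-05). Sv2b and Syt2 had 0.58 ± 0.11 (SE, adjusted p = 0.00731) and 0.52 ± 0.11 (SE, adjusted p = 0.0097), and both fell below the log2FC threshold without CCI male replicate 1 or without naïve male replicate 1.

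Genes of axon growth and the cytoskeleton were mostly on the raised side. Of 18 measured members 12 were higher, all 18 had a log2FC above 0, and in 14 the CCI libraries lay above the naïve ones. Among genes with a symbol 8.06% were higher, and 35.6% had no overlap in either direction. The median log2FC was 0.76, beside the higher sum of sensory neuron markers in CCI rats. Gap43, the growth-cone protein, was at 208, 236, 261 and 246 CPM in naïve and 409.6, 436, 504 and 529.7 CPM in CCI rats. The log2FC was 0.98 ± 0.066 (SE, adjusted p = 1.16e-04), with 0.93 in males and 1.02 in females. Flrt3, an adhesion protein of growing axons, went from 32.7, 32.02, 30.2 and 33 CPM to 75.6, 72.3, 100.3 and 101 CPM, a log2FC of 1.43 ± 0.100 (SE, adjusted p = 1.27e-04). Stmn4 and Stmn2, stathmins that regulate microtubules, had 1.43 ± 0.092 (SE, adjusted p = 9.04e-05) and 0.71 ± 0.093 (SE, adjusted p = 0.0015), and Stmn2 was the more abundant in CPM at 2093 ± 265 CPM in naïve and 3414 ± 190.4 CPM in CCI rats. Tubb2b, a tubulin of growing neurons, had 1.09 ± 0.074 (SE, adjusted p = 1.17e-04). The semaphorin co-receptor Plxna2 had 1.07 ± 0.12 (SE, adjusted p = 7.74e-04), the kinase Tnik 1.13 ± 0.099 (SE, adjusted p = 3.12e-04), the atypical cadherin Fat3 1.14 ± 0.094 (SE, adjusted p = 2.50e-04) and the stress-response gene Gadd45a 1.14 ± 0.064 (SE, adjusted p = 4.75e-05). The neurofilaments did not reach the log2FC threshold, with 0.44 ± 0.11 (SE) for Nefh and 0.41 ± 0.12 (SE) for Nefm.

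**Figure D2:**
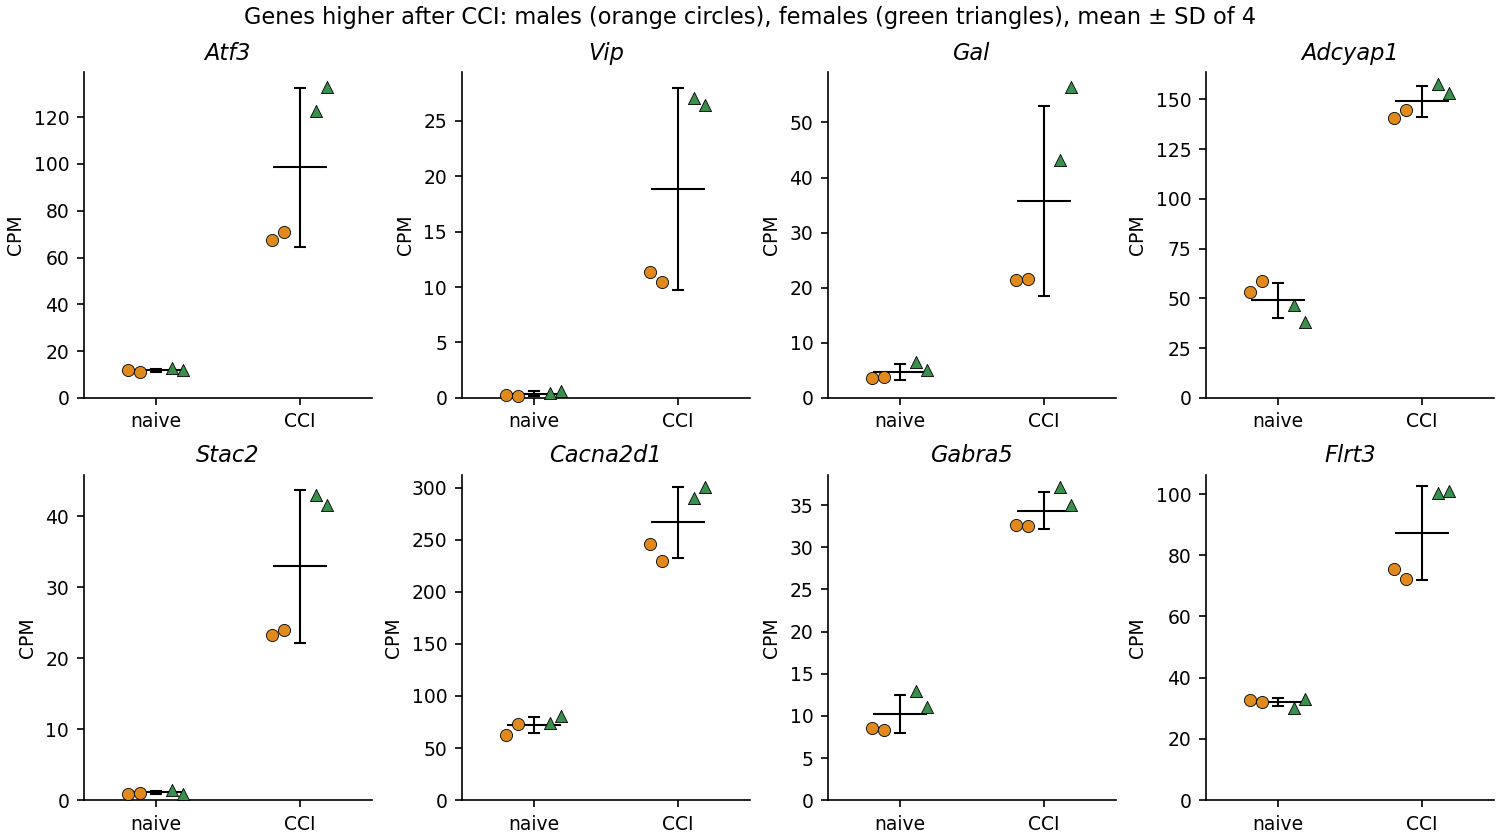
CPM of 8 genes called higher after CCI, with each point 1 library (orange circles males, green triangles females), the horizontal bar the mean of 4 libraries and the error bar its SD. In all 8 genes every CCI library lies above every naïve library. In each of them both CCI females also lie above both CCI males.

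The remaining named genes with the largest rises came from low naïve levels. Ecel1, an endopeptidase of damaged neurons, was at 1.26, 1.06, 1.82 and 1.21 CPM in naïve and 7.86, 6.91, 12.6 and 12.6 CPM in CCI rats, with a log2FC of 2.86 ± 0.17 (SE, adjusted p = 5.15e-05). Ankrd1, a nuclear repeat protein of stressed cells, was at 0.363, 0.293, 0.444 and 0.26 CPM against 5.36, 6.69, 7.47 and 9.41 CPM, with 4.37 ± 0.21 (SE, adjusted p = 3.71e-05). Arg1, arginase of polyamine synthesis and of some macrophages, had 2.47 ± 0.27 (SE, adjusted p = 7.16e-04). Serpina3n, a secreted protease inhibitor, had naïve values of 0.249, 0.165, 0.106 and 0.0709 CPM and CCI values of 6.15, 6.73, 13.4 and 37.4 CPM, so that 1 CCI female alone supplied more than the other 3 CCI rats together. Its log2FC was 6.39 ± 0.63 (SE, adjusted p = 4.56e-04). Crisp3, a secreted glycoprotein, rested on 1, 3, 6 and 1 counts in the naïve libraries and was at 4.54, 3.82, 7.08 and 8.65 CPM after CCI, with a log2FC of 6.66 ± 0.35 (SE, adjusted p = 3.81e-05). Cldn4, a tight junction protein, Tgm1, a transglutaminase, and Pde6b, a phosphodiesterase, had log2FC values of 4.93 ± 0.55 (SE), 4.31 ± 0.33 (SE) and 3.61 ± 0.302 (SE). Fitted fold changes of genes near 0 in naïve rats depend on the prior count of the fit.

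The named higher genes with the highest mean CPM changed moderately. They included lysosomal and secretory genes as well as neuronal ones. Ctsb, the protease cathepsin B, had a mean of 1489 ± 201 CPM in naïve and 2381 ± 211 CPM in CCI rats. Its log2FC was 0.69 ± 0.11 (SE, adjusted p = 0.00309). Clu, clusterin, had 0.66 ± 0.12 (SE, adjusted p = 0.00496), Bcat1, an enzyme of branched-chain amino acid breakdown, 0.66 ± 0.102 (SE, adjusted p = 0.00297), and Psap, prosaposin, 0.504 ± 0.095 (SE, adjusted p = 0.00606). In Psap the value stood at the threshold, and the call was lost when any of 5 libraries was left out.

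Among the lowered genes were those of myelinating Schwann cells. Of 10 measured Schwann cell and myelin genes 6 were lower and 1, Ngfr, was higher, and the median log2FC was −0.95. Among genes with a symbol 24.5% were lower and 8.06% higher. Summed over the list, naïve libraries held from 8742 to 14664 CPM and CCI libraries from 4548 to 6766 CPM, without overlap. Mbp, myelin basic protein, was at 9369, 7705, 6433 and 5113 CPM in naïve rats and 2160.4, 2066, 3299.7 and 2336 CPM in CCI rats. It was lower in all CCI rats than in any naïve rat, with a log2FC of −1.52 ± 0.22 (SE, adjusted p = 0.00209). The change was −2.01 in males and −1.04 in females, a difference that did not pass the interaction test (adjusted p = 0.0835). That test was passed by 4 of the 10, Prx, Drp2, Mag and Sox10, beside 11.6% of genes with a symbol. Ncmap, a protein of non-compact myelin, was at 256, 202, 200.2 and 160.0 CPM in naïve and 76.5, 71, 108 and 103 CPM in CCI rats, a log2FC of −1.201 ± 0.18 (SE, adjusted p = 0.00266). Bcas1, a marker of myelin-forming cells, had −1.36 ± 0.23 (SE, adjusted p = 0.00422). Prx and Drp2, proteins of myelinating Schwann cells, had −0.94 ± 0.23 (SE, adjusted p = 0.0155) and −0.998 ± 0.202 (SE, adjusted p = 0.00795). The change was −1.52 in males and −0.37 in females for Prx, and −1.51 in males and −0.49 in females for Drp2. The call for Prx ended when either CCI male was left out. Mag, the adhesion protein of inner myelin, had −0.53 ± 0.199 (SE, adjusted p = 0.0726), and the lineage factor Sox10 had −0.405 ± 0.14 (SE, adjusted p = 0.0523), so neither passed. Scd2, a fatty acid desaturase and one of the most abundant transcripts, had a mean of 10288 ± 1518 CPM in naïve and 6389 ± 942 CPM in CCI rats and a log2FC of −0.69 ± 0.14 (SE, adjusted p = 0.0077). The rest of the cholesterol and fatty acid list, 4 of 5 genes, was not called.

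Genes of satellite glia were also on the lowered side. Of 9 measured members 5 were lower and 4 were not called, with a median log2FC of −0.51, and in each of the 5 the conditions did not overlap. The shares over genes with a symbol were 24.5% lower and 35.6% without overlap in either direction. Fabp7, a fatty acid binding protein of satellite glia, was at 94, 80.2, 106 and 98.5 CPM in naïve and 46.1, 47.95, 60.5 and 63.5 CPM in CCI rats. With a log2FC of −0.81 ± 0.072 (SE, adjusted p = 3.19e-04) it had one of the smallest adjusted p-values among the lowered named genes. Vtn, vitronectin, was at 95.3, 103, 75.5 and 68.2 CPM in naïve and 52.05, 53.4, 46.6 and 44.4 CPM in CCI rats, and its log2FC was −0.79 ± 0.074 (SE, adjusted p = 3.75e-04). Scrg1 had −0.89 ± 0.16 (SE, adjusted p = 0.00513) and Lgi4 −0.64 ± 0.18 (SE, adjusted p = 0.0274). The metallothionein Mt3 had −0.51 ± 0.12 (SE, adjusted p = 0.0138). Gfap, the intermediate filament of reactive glia, had a log2FC of −0.15 ± 0.35 (SE, adjusted p = 0.773) and was not called. Its value was −0.96 in males and 0.65 in females, a difference that did not pass the interaction test (adjusted p = 0.0787). Leaving out any 1 male library ended the call for Lgi4, and leaving out either CCI female or female naïve replicate 1 ended that for Mt3.

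Other lowered genes with small adjusted p-values came from several lists or none. Hspb2, a small heat shock protein, was at 19.3, 18.2, 20.6 and 18.04 CPM in naïve and 7.76, 8.34, 10.1 and 9.13 CPM in CCI rats. Its 4 naïve values were within a narrow range, and its log2FC of −1.11 ± 0.086 (SE, adjusted p = 1.74e-04) came with the smallest adjusted p of the named lowered genes. Aldh1a1, an enzyme of retinoic acid synthesis, was at 55.5, 58.7, 79.3 and 75.5 CPM in naïve and 30.4, 32.02, 46.9 and 31.7 CPM in CCI rats, with −0.92 ± 0.11 (SE, adjusted p = 0.00107). Gjb2, a gap junction protein, had −0.82 ± 0.075 (SE, adjusted p = 3.58e-04), Crispld2 −0.85 ± 0.094 (SE, adjusted p = 7.67e-04), the selenocysteine tRNA kinase Pstk −0.93 ± 0.102 (SE, adjusted p = 7.28e-04) and Sat1, the enzyme that acetylates polyamines, −1.04 ± 0.13 (SE, adjusted p = 0.00142). Tnfrsf25, a death receptor, was at 14.1, 9.44, 3.61 and 4.799 CPM in naïve and 1.42, 1.77, 2.38 and 1.61 CPM in CCI rats, and Cpt1b, a mitochondrial enzyme of fatty acid import, had a log2FC of −1.56 ± 0.27 (SE). Among MAP kinase genes 4 of 11 were lower, beside 24.5% of genes with a symbol. Dusp4, a phosphatase of the pathway, had −0.98 ± 0.21 (SE, adjusted p = 0.00958). Leaving out naïve male replicate 1 or either CCI male left 2 of the 11 lower.

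Splicing factors and nuclear transcripts known to retain introns formed the list with the most lowered members by number, though smaller lists had larger shares. Of 31 measured members 15 were lower, beside 24.5% of genes with a symbol. All 31 had a log2FC below 0, with a median of −0.50, beside −0.15 over all genes with a symbol. The median of the list was −0.80 in males alone and −0.21 in females alone, where 28 of the 31 were below 0. Many of the symbols come from a list of genes that the study had called higher in naïve males than in naïve females, and the summed level of the list was highest in the naïve males. Leng8 was at 542, 389, 118 and 195 CPM in naïve and 97.4, 90.9, 95.1 and 59.1 CPM in CCI rats. The naïve males were far above the naïve females, and the lowest naïve female was only slightly above the highest CCI rat. The log2FC was −1.67 ± 0.31 (SE, adjusted p = 0.00555). Rsrp1 was at 510.1, 376, 155 and 236 CPM in naïve and 137, 117, 134 and 92.4 CPM in CCI rats, with the same order of groups and a log2FC of −1.29 ± 0.25 (SE, adjusted p = 0.00659). The kinases Clk1 and Clk4, which phosphorylate splicing factors, had −1.13 ± 0.22 (SE, adjusted p = 0.00681) and −0.99 ± 0.18 (SE, adjusted p = 0.00591). Snrnp70, a protein of the U1 particle, had −1.11 ± 0.22 (SE, adjusted p = 0.00757), and Pnisr −1.25 ± 0.22 (SE, adjusted p = 0.00478). Ddx5, an RNA helicase, had −0.23 and was not called. Without both male replicate 1 libraries 9 of the 31 were lower. The CCI sums of the list, from 3903 to 4194 CPM, lay close together, while the naïve sums ran from 4237 to 8293 CPM.

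**Figure D3:**
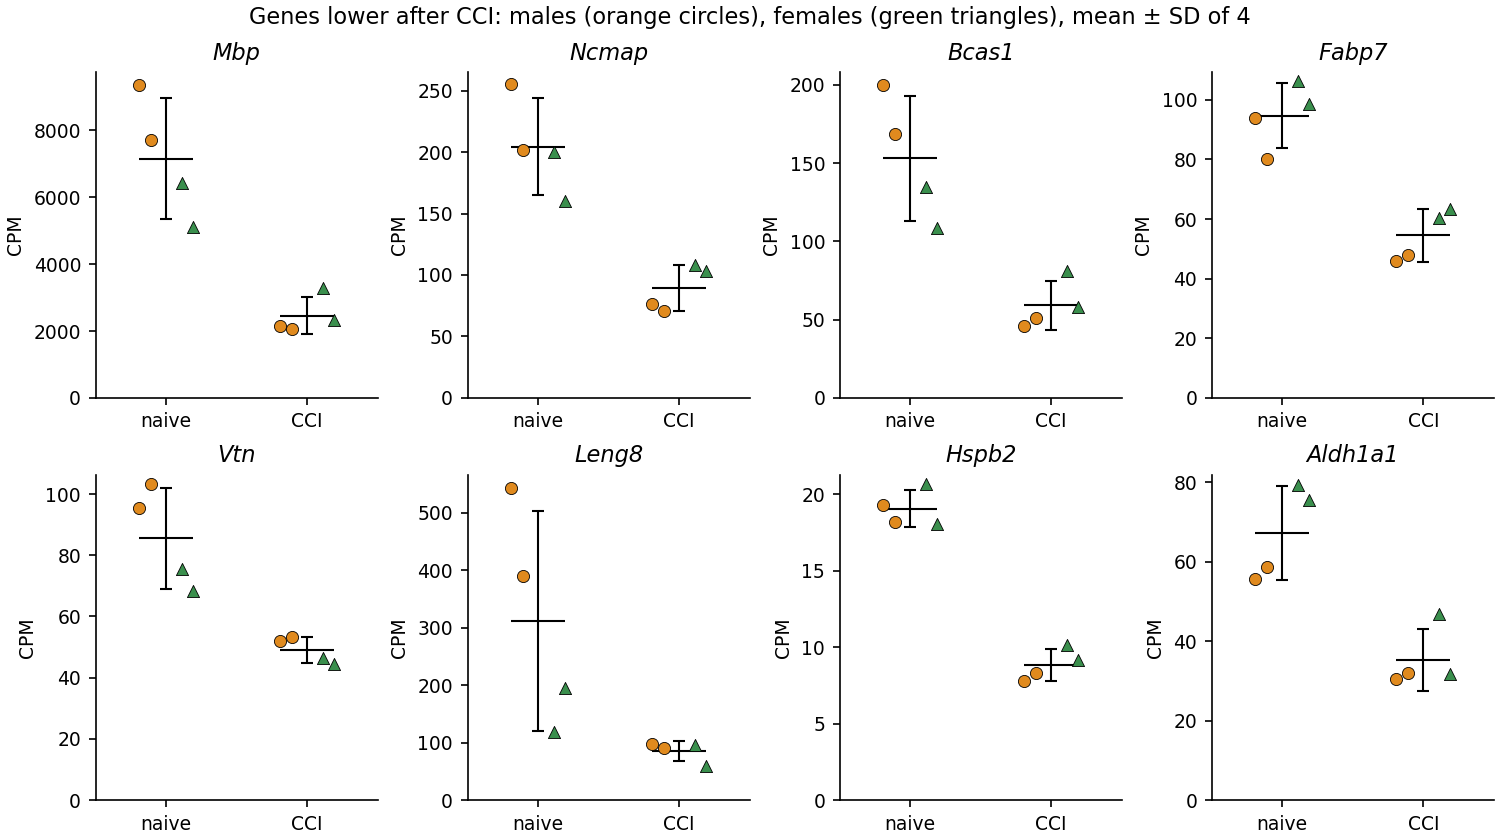
CPM of 8 genes called lower after CCI, with each point 1 library (orange circles males, green triangles females), the horizontal bar the mean of 4 libraries and the error bar its SD. Every CCI library lies below every naïve library in each gene. In Leng8 the naïve males lie far above the naïve females, whereas the naïve values of Hspb2 lie together.

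Of 34 extracellular matrix and fibroblast genes 10 were lower and 24 were not called, with a median log2FC of −0.35. This share of lower genes was near the 24.5% of all genes with a symbol. The median was −0.74 in males alone and 0.03 in females alone, and the interaction of sex and CCI was called for 16 of the 34, beside 11.6% of all genes with a symbol. Leaving out naïve male replicate 1, CCI male replicate 2 or CCI female replicate 2 left no gene called by this term. Col11a2, a fibrillar collagen chain, had a log2FC of −1.42 ± 0.27 (SE, adjusted p = 0.00637), Col27a1 −1.24 ± 0.27 (SE, adjusted p = 0.00995) and Pxdn, which crosslinks basement membrane collagen, −0.87 ± 0.18 (SE, adjusted p = 0.00783). Dcn, decorin, and Col6a2 had −0.57 ± 0.11 (SE, adjusted p = 0.00595) and −0.69 ± 0.17 (SE, adjusted p = 0.0166). Col1a1 and Col3a1, the main collagens of connective tissue, had −0.33 and −0.32, and neither was called. When both male replicate 1 libraries were left out, 6 of the 34 were lower and 1 was higher. The 10 became 6, 5 and 4 without naïve male replicate 2, CCI male replicate 1 and CCI male replicate 2.

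All 8 erythroid and hemoglobin genes with a symbol were lower, with a median log2FC of −2.41, but none of them separated the conditions. The shares over genes with a symbol were 24.5% lower and 35.6% without overlap in either direction. With the replicate number as a block within each sex 1 of the 8 was called. Hbb, a β-globin gene, was at 54.6, 542, 607 and 866 CPM in naïve and 104, 77.5, 70.1 and 98.5 CPM in CCI rats. Naïve male replicate 1 was below every CCI rat, and the other 3 naïve rats were several times higher. Alas2, the erythroid enzyme of haem synthesis, was lowest in the same naïve rat, with 1.49, 22.3, 15.9 and 24.5 CPM in naïve and 3.65, 3.51, 2.48 and 3.63 CPM in CCI rats. The log2FC was −2.42 ± 0.63 (SE, adjusted p = 0.021) for Hbb and −2.22 ± 0.67 (SE, adjusted p = 0.0344) for Alas2. Hemoglobin genes are near-identical copies, so the division of reads among them is uncertain. Leaving out naïve male replicate 2, CCI male replicate 2 or either CCI female left 0 of the 8 called, and leaving out naïve female replicate 2 or CCI male replicate 1 left 3. Genes of neutrophils and their precursors gave 3 lower of 4, beside the same 24.5%. Among the 3 was Np4, a defensin, at 0.0382, 1.39, 2.71 and 3.83 CPM in naïve and 0.0343, 0.124, 0.284 and 0.461 CPM in CCI rats. The same naïve male was again the lowest of the naïve rats. The 3 became 0 or 1 when any of 5 libraries, all but naïve male replicate 1, naïve female replicate 1 and CCI female replicate 1, was left out. Summed per library, the erythroid genes ran from 139.5 to 2371 CPM in naïve and from 196.8 to 276.1 CPM in CCI rats. Their part in other changes was not tested.

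Among markers of immune cells and muscle, few were called over both sexes. The share of higher genes, for the counts in this paragraph, was 8.06% over genes with a symbol. Of 4 MHC class II genes 1, RT1-Da, was higher, with a log2FC of 0.54 ± 0.12 (SE, adjusted p = 0.0128) and overlapping values. Its call was lost without naïve male replicate 1, CCI male replicate 2 or CCI female replicate 1. Cd74, the invariant chain, had 0.31 ± 0.12 (SE, adjusted p = 0.0686). Among 9 cytokine and innate response genes Tnfaip6 and Serpina3n were higher. Tnfaip6, an induced hyaluronan-binding protein, was at 1.53, 1.72, 1.73 and 1.39 CPM in naïve and 1.94, 1.88, 7.88 and 9.49 CPM in CCI rats, so that the CCI females alone stood out. Leaving out any 1 female library ended its call, while without naïve male replicate 1 the list had 5 higher members. Of 11 skeletal muscle genes 3 were higher (Mb, Tnni2 and Actn3), but the conditions overlapped in every one. Mb, myoglobin, was at 0.115, 0.165, 0.127 and 0.0946 CPM in naïve and 4.9, 4.68, 0.0517 and 0.281 CPM in CCI rats, and the CCI males alone were high. The median of the muscle list was 2.65 in males and −0.28 in females, and its count of 3 ranged from 0 without naïve male replicate 2, either CCI male or CCI female replicate 2 to 5 without naïve or CCI female replicate 1. It was 1 without naïve male replicate 1. The 22 mitochondrial respiratory chain genes ran from −0.33 to 0.29, with a median of −0.11.

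**Figure D4:**
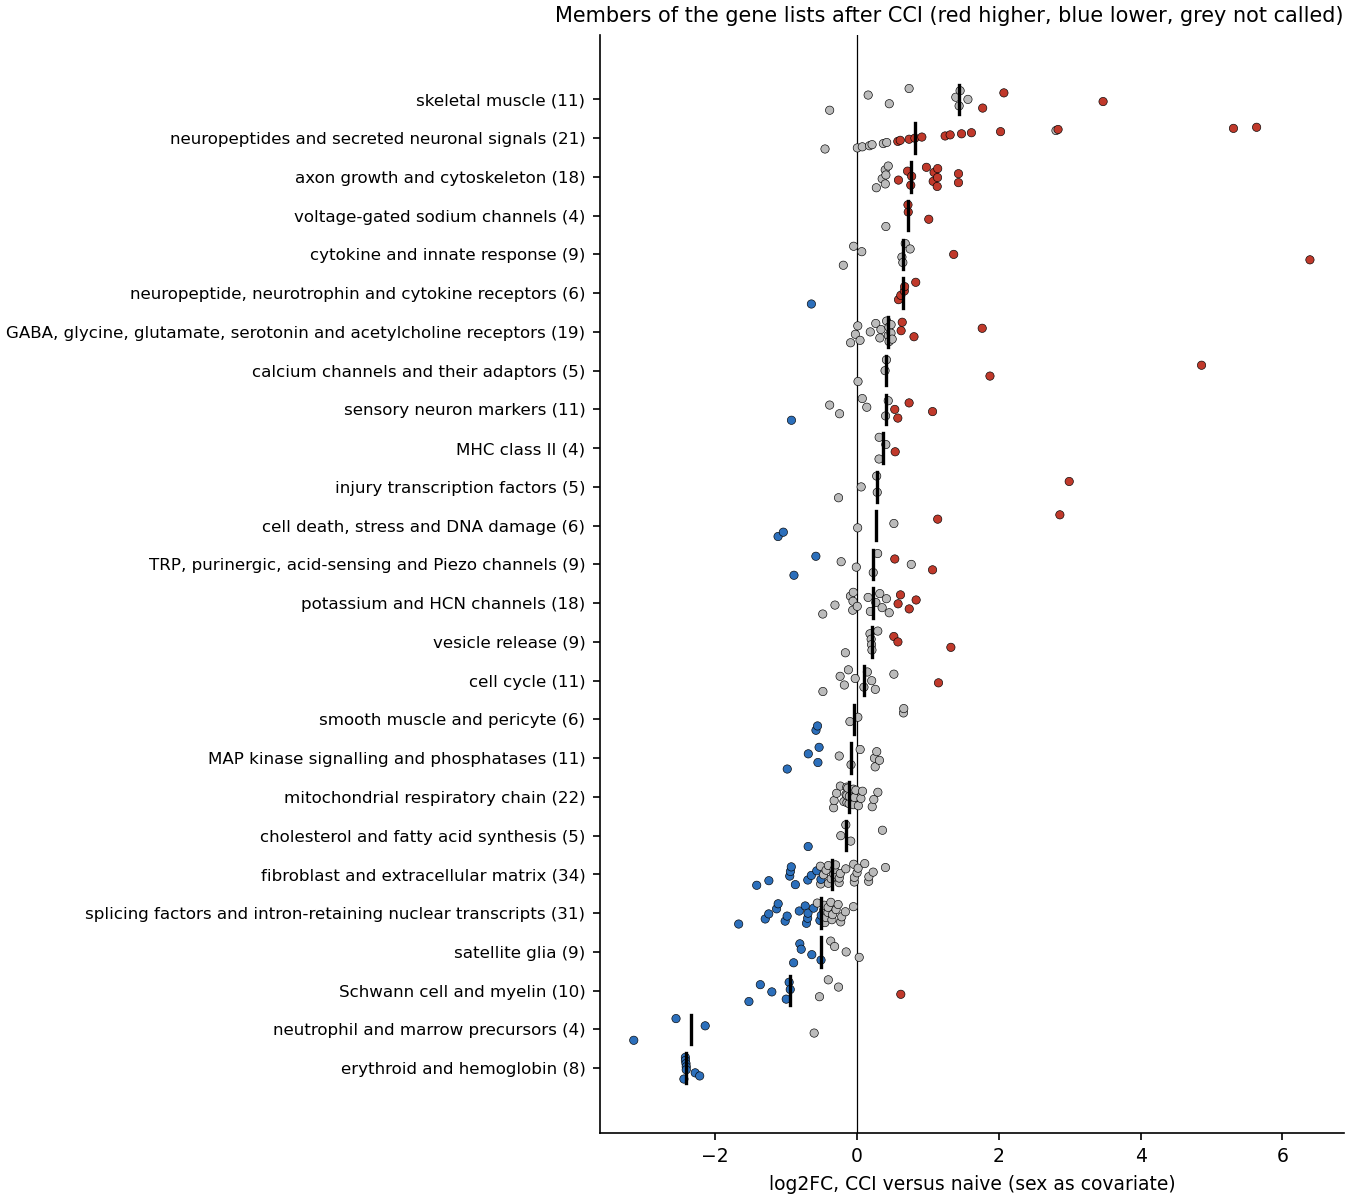
Log2FC of CCI over naïve rats (horizontal axis) for the named members of each list with at least 4 measured members, whose number stands in brackets. Each point is 1 gene (red called higher, blue called lower, grey not called) and the black bar is the list's median. The medians of the neuropeptide and axon growth lists lie to the right of 0, at 0.82 and 0.76, and those of the myelin and hemoglobin lists to the left, at −0.95 and −2.41.

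The additive value was then set beside the change in each sex fitted alone. No gene called higher had the opposite sign in either sex, and 1 gene called lower did, in females. Both CCI rats of a sex lay outside both naïve rats of that sex, in the called direction and in both sexes, for 956 of the higher genes (97.7%) and 1271 of the lower genes (88.9%). The size was less even. Of the higher genes 69.5% changed more in males, and of the lower genes 84.8% did. The median over the higher genes was 0.80 in males and 0.60 in females, and over the lower genes −1.01 in males and −0.56 in females. Of the 979 higher genes 827 were also called in males alone, 471 in females alone, 397 in both and 78 in neither. Of the 1429 lower genes the counts were 1192, 225, 164 and 176. Fitted alone, males gave calls for 9.05% of all genes higher and 12.5% lower, and females for 3.69% and 2%. These calls use the same libraries as the additive fit and are not independent of it.

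**Figure D5:**
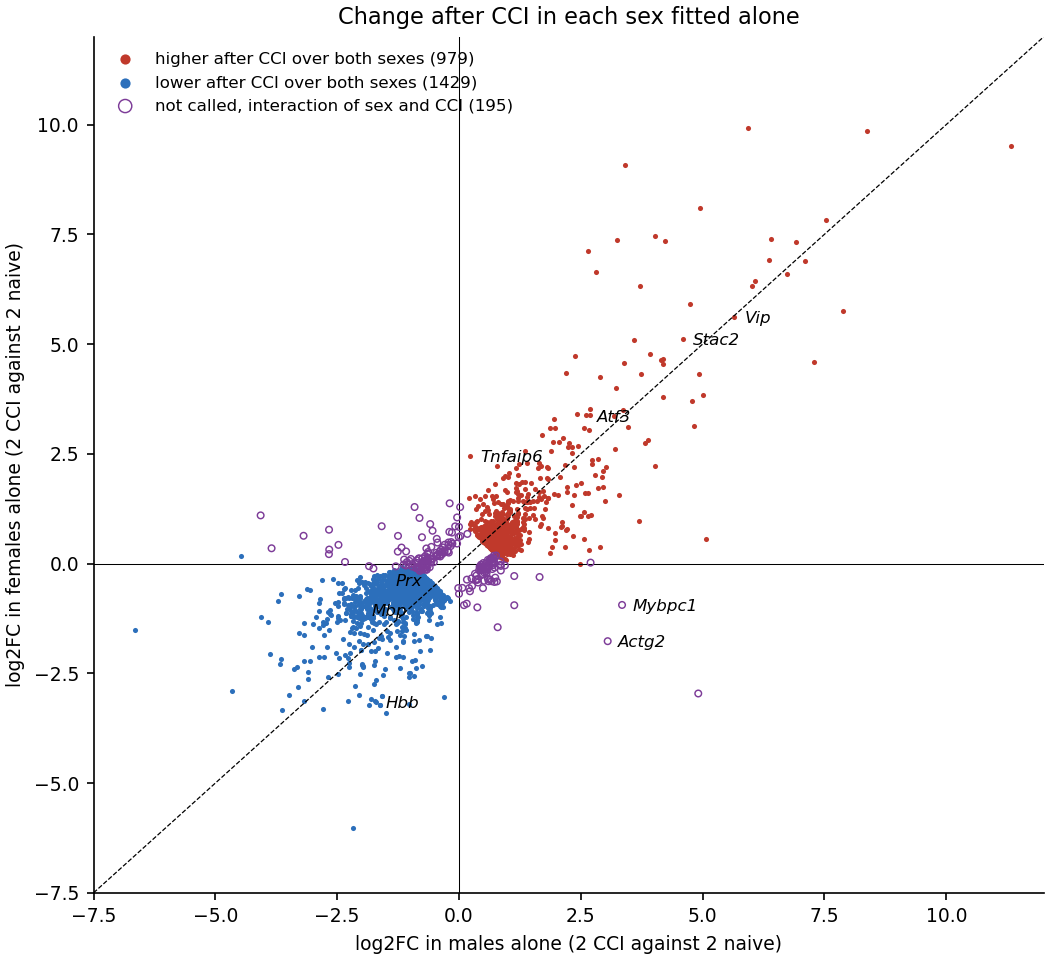
Log2FC of CCI over naïve in males alone (horizontal axis) against females alone (vertical axis), 2 against 2 libraries each. Red points are the 979 genes called higher over both sexes, blue points the 1429 called lower, and open purple circles the 195 genes that were not called over both sexes but whose change differed by the interaction term. The dashed line marks equal change. Most blue points lie above this line, since their decrease was larger in males, and many open circles lie where the signs oppose.

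The 78 higher and 176 lower genes called in neither sex alone included 1 and 2 with a symbol, none at a mean log2 CPM of 3 or more. Among those without a symbol, ENSRNOG00000059714 was at 80.8, 41.5, 84.9 and 64.6 CPM in naïve and 159, 102, 97.5 and 116 CPM in CCI rats, with a log2FC of 0.81 ± 0.24 (SE, adjusted p = 0.0337). The opposite direction is shown by ENSRNOG00000059061, at 85.5, 102, 179 and 101 CPM in naïve and 71.6, 67.4, 82.3 and 72.1 CPM in CCI rats, with −0.64 ± 0.18 (SE, adjusted p = 0.0248). In both the conditions did not overlap, but the spread within naïve rats was wide.

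The interaction of sex and CCI was called for 270 genes (1.59% of those tested), 227 of them among the 1960 genes with a symbol (11.6%), with a smallest adjusted p of 0.0402. Of these 11 were in the higher set and 64 in the lower set, and of the 64 the decrease was larger in males in 63. The other 195 were not called over both sexes, and in 148 of them the sexes had opposite signs. The muscle gene Mybpc1 was at 1.19, 1.41, 1.29 and 1.06 CPM in naïve and 12.5, 13.9, 0.3101 and 0.921 CPM in CCI rats, where the CCI males alone were high. Its additive log2FC of 1.44 ± 0.89 (SE, adjusted p = 0.245) stands for 3.35 in males and −0.94 in females. For Top2a, a topoisomerase of dividing cells, 0.098 ± 0.24 (SE, adjusted p = 0.79) over both sexes stands for −0.54 in males and 0.75 in females. Of the 11 cell cycle genes 1 was called higher over both sexes, beside 8.06% of genes with a symbol, and 10 were not called. In males alone 10 of the 11 were below 0 (median −0.54) and in females alone 10 were above 0 (median 0.66), and the interaction term was called for 3 of the 11, beside the 11.6% of genes with a symbol. The 3 mast cell protease genes, Cpa3, Cma1 and Mcpt1l1, were all called by the interaction term. Their median was −2.67 in males and 0.63 in females, and none was called over both sexes. Their sum was low in every library, from 0.771 to 6.14 CPM. The serotonin receptor subunit Htr3a had 0.59 in males and −0.07 in females. Its partner Htr3b had 0.702 in males and −0.04 in females. Leaving out naïve male replicate 1, CCI male replicate 2 or CCI female replicate 2 left 0 genes called by the interaction term, while leaving out naïve female replicate 2 gave 563. Leaving out any of 3 more libraries left 1 or 2. With all 8 libraries 4085 genes had an unadjusted p under 0.05 for this term in edgeR's test, and DESeq2 called 1585.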

How the data were processed

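RNA of 8 rats was selected for poly(A), made into stranded libraries and read from both ends. Per the methods and processing notes of the study, CASAVA 1.8.2 was used, HISAT2 aligned the reads to rn6, reads of ribosomal RNA were taken out, and featureCounts counted the rest on Ensembl genes. The table deposited by the authors holds these raw counts for 32623 genes, neither normalized nor corrected for batch.

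Genes were kept by filterByExpr over the 4 groups (minimum count 10, minimum total 15), scaled with TMM and fitted with edgeR 4.0.16 in R 4.3.3 (glmQLFit and glmQLFTest with sex and CCI as terms, the interaction tested apart). Each SE was obtained as |log2FC| over the square root of F. Mean log2 CPM used a prior count of 2. Alternatives were DESeq2 1.42.0, other scalings, filters and thresholds, each sex alone, replicate blocks and leaving out libraries. The fits were tested on simulated data. Counting error is small beside the spread between rats except for genes with few counts.

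The genes named were, per direction, the 15 of largest change without overlap (mean log2 CPM 1 or more), the 10 of smallest adjusted p, the 10 most abundant, up to 10 called in neither sex alone (mean log2 CPM 3 or more), the 3 of smallest interaction p, and members of chosen lists. The comparison, its members and the lists were chosen with earlier results of these data known. Symbols came from tables of the study that pair them with identifiers. Promoters are from RefSeq (GRCr8). Some genes that this rule would name are not reported here.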

Additional observations from a re-analysis of the deposited data

Results flagged for a closer look

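In 10 of 262 groups of 4 libraries checked for the named genes, 1 library lay apart from the other 3 by more than Dixon's critical value allows, given here as the ratio of its gap to the range of the 4. Chance gives about 1 in 20. Naïve male replicate 1 was low in 5 of them, in the erythroid genes Hbb (0.830), Hba2 (0.834), Alas2 (0.844) and Slc4a1 (0.883) and in Ngfr (0.872). Naïve male replicate 2 was high in Cldn4 (0.8293), and naïve female replicate 2 was low in Arg1 (0.992). Among CCI libraries, female replicate 1 was high in Aldh1a1 (0.881) and low in Alas2 (0.897), and female replicate 2 was low in Leng8 (0.863).

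The effect of CCI was unequal in males and females by the interaction term in the 20 named genes listed here, among others. This term is given as the log2FC in females minus that in males. It was 0.78 for Atf3, 0.64 for Csf1 and 2.24 for Tnfaip6, which rose more in females, and −1.71 for Nts, which rose more in males. It was −0.65 for Htr3a and −0.72 for Htr3b. In the myelin and glial genes it was 1.17 for Prx, 1.03 for Drp2, 1.03 for Mag, 0.72 for Sox10 and 0.95 for Lgi4. In the splicing kinase Clk1 it was 1.12, and in the matrix and pericyte genes 1.37 for Col27a1, 1.34 for Col5a3, 0.91 for Col6a2, 0.95 for Pxdn and 0.86 for Pdgfrb. The muscle genes Mybpc1 and Actg2 gave −4.27 and −4.81, and Top2a gave 1.30. All adjusted p-values of these terms (edgeR's quasi-likelihood test) were between 0.0402 and 0.0496. Col3a1 and the mast cell genes Cpa3, Cma1 and Mcpt1l1 were also called by the interaction term and are not among the 20.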

How the results depend on the processing

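The counts of 979 higher and 1429 lower genes stayed within 1.5 times of these values with DESeq2 (972 and 1540, of which 940 and 1381 were shared), DESeq2's size factors (944 and 1478), upper-quartile scaling (916 and 1535), no filter (1012 and 1462), at least 10 counts in every library (877 and 1355) and no sex term (926 and 1247). Chosen after seeing the data, the likelihood-ratio test gave 1008 and 1546 and the version 4 quasi-likelihood fit 1041 and 1609. Without a log2FC threshold they were 2858 and 2614, and with glmTreat against 0.5 they were 210 and 67. Males alone gave 1537 and 2126, and females alone 627 and 340. Leaving out 1 library gave 783 to 1142 higher and 814 to 1726 lower, with 814 and 860 lower without CCI male replicate 2 and replicate 1. Leaving out both male replicate 1 libraries, also chosen after seeing the data, gave 740 and 729. For the interaction of sex and CCI the count of 270 was 1585 with DESeq2 and 0 to 563 without 1 library.

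Deviations from group means correlated at 0.73 between same-numbered males and at −0.01 between same-numbered females. The numbers were therefore not taken to pair the rats over both sexes, although the males deviated together. With the replicate number as a block, 964 were higher and 1359 lower, and with a block within each sex 974 and 1295.

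The sign turned in named genes that were not called, of which only some are given here. Fos was at −0.32 in males alone and Gfap at 0.65 in females alone, against 0.29 and −0.15 over both sexes. Htr3a, Htr3b, Mybpc1 and Actg2 were at −0.070, −0.035, −0.94 and −1.77 in females alone and Top2a at −0.54 in males alone. Actg2 was at −0.27 and −0.21 without naïve male replicate 1 and 2, and at −0.27 without both male replicate 1 libraries. With 1 library left out, the log2FC of Actg2 ran from −0.27 to 1.59, and the log2FC of Top2a from −0.077 (without naïve female replicate 2) to 0.28, being below 0 also without naïve female replicate 1 (−0.057) and CCI female replicate 2 (−0.0306). The cause of these shifts was not tested. Counting error is largest for genes with few counts, such as Crisp3.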
